A study of Homo sapiens with 6 samples.

Results

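MALAT1, NEAT1 and 8 host genes of small nucleolar RNAs (snoRNAs), GAS5, SNHG1, SNHG5, SNHG6, SNHG8, SNHG12, SNHG16 and DANCR, were followed in A375 melanoma cells with and without RIPK4. They are long non-coding RNAs (lncRNAs), and were taken by name from the deposited table, where all 10 have a row among 20851 gene names. A375 is an established human melanoma cell line. The 3 A375RIPK4.KO libraries came from 1 clone in which RIPK4, a kinase gene, had been disrupted with a lentiviral CRISPR/Cas9 system, and the 3 A375neg libraries from cells that carried the same system with a non-targeting guide and are labelled as a GFP control. Both groups were grown in RPMI-1640 medium with serum, and each is described as 3 biological replicates. With 1 knockout clone, an effect of the missing kinase and a property of that clone cannot be told apart. The libraries were strand-specific and made from poly(A)-selected RNA, so an RNA without a poly(A) tail is measured only as far as it was carried through that selection.

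The libraries held 21882863 to 26694140 counts in gene rows. RIPK4 itself had 319, 368 and 404 raw counts in A375neg and 42, 51 and 61 in A375RIPK4.KO, so the libraries fit their labels (log2 fold change -2.69 ± 0.17 SE, adjusted p 1.0e-05 by edgeR's quasi-likelihood test). Melanoma markers were present: SOX10, a transcription factor of the melanocyte lineage, had 8844 to 10056 raw counts in A375neg and 7448 to 7858 in A375RIPK4.KO, while MLANA, TYR and DCT, which mark pigmented cells, have no row in the table used here. The leukocyte marker PTPRC had 0 to 3 counts. The summed normalized counts of 10 listed markers of other cell types ranged from 665.9 to 779.3 in A375neg and from 292.9 to 329.8 in A375RIPK4.KO, with KRT14 as the largest contributor, and their part in the results below was not tested. In bulk RNA of this kind, fewer cells of a type and less RNA per cell cannot be told apart.

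MALAT1 is an abundant RNA of nuclear speckles, the nuclear bodies in which splicing factors gather. NEAT1 is the scaffold of paraspeckles, bodies that do not form without its long isoform, while a short isoform with the same 5′ end is polyadenylated. The host genes work differently: most carry snoRNAs in their introns, and these small RNAs guide the methylation or pseudouridylation of ribosomal RNA once they have been cut out of the intron. The spliced remainder of several hosts begins with a pyrimidine-rich start like that of ribosomal protein mRNAs and is degraded when it is translated, so its level depends on both synthesis and decay.

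On the normalized scale, in which raw counts are scaled to a common library size by the TMM method, 9 of the 10 lncRNAs had a lower fitted level in A375RIPK4.KO and DANCR a higher one, against 50.7% of the 14443 genes tested that were lower by sign. None was called changed, which required an adjusted p under 0.05 and a change of at least 1.5-fold, while 9.04% of all genes tested were called and 4.65% were called lower. At an adjusted p under 0.05 with no limit on the fold, 3 of 10 passed, GAS5, SNHG1 and SNHG5, all of them lower; the share among all genes was 16.6% in either direction and 8.24% lower. At an unadjusted p under 0.05 there were 5, with NEAT1 and SNHG12 added, all lower, against 30.0% of all genes in either direction and 14.9% lower. DESeq2's Wald test called 1 of the 10, SNHG12, and 1353 of all genes. The median log2 fold change was -0.25 over the 10 lncRNAs and -0.0047 over all genes tested.

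**Figure D1:**
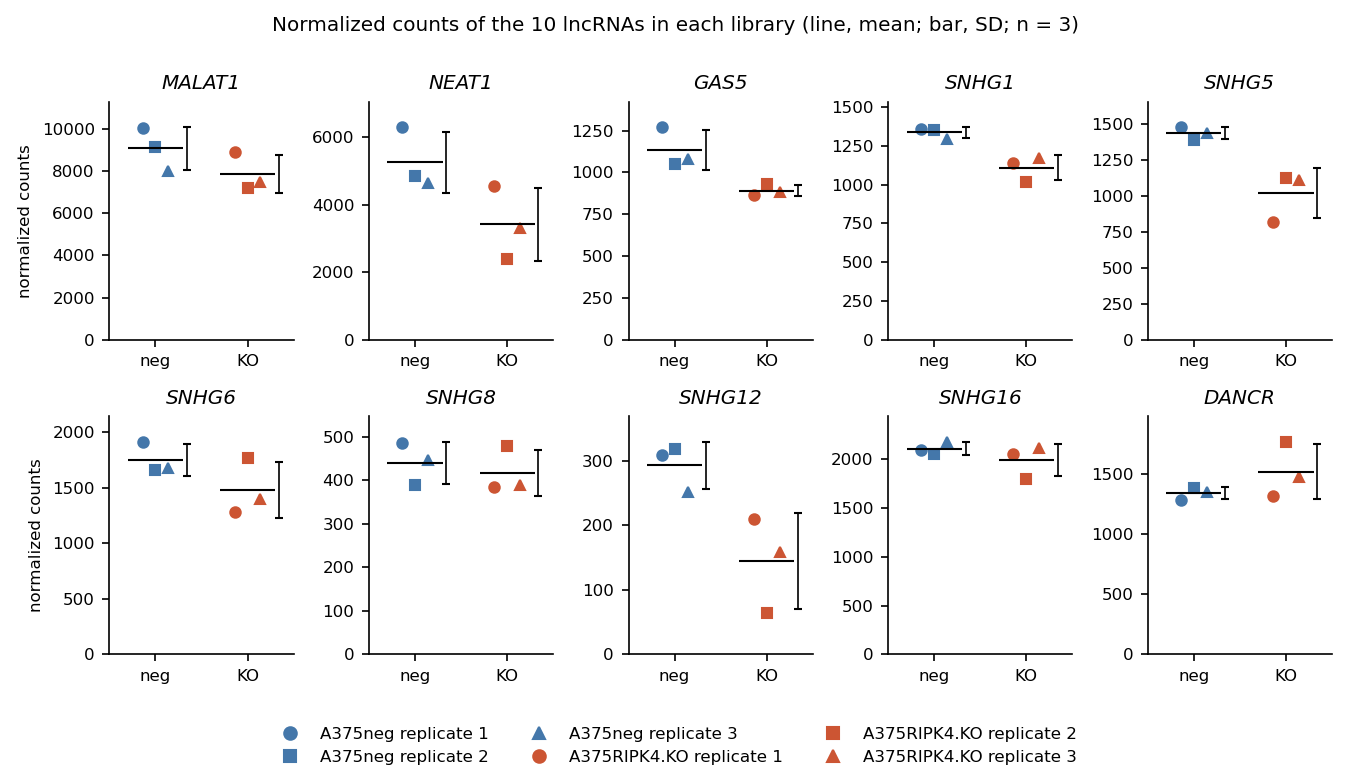
Normalized counts (y axis, starting at 0) of each lncRNA in the 3 A375neg and the 3 A375RIPK4.KO libraries (x axis), with the mean as a line and the SD as a bar. The 2 groups did not overlap for NEAT1, GAS5, SNHG1, SNHG5 and SNHG12, and relative to their mean the 3 A375RIPK4.KO libraries lay farther apart for SNHG12 and NEAT1 than for the others.

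MALAT1 (chr11:65497738-65506516, plus strand) had 10056, 9958 and 8473 raw counts in A375neg and 8137, 6886 and 7403 in A375RIPK4.KO. On the normalized scale the mean was 9086 ± 1014 (SD, n = 3) and 7863 ± 907, and the groups overlapped, since the highest A375RIPK4.KO library (8894) lay above the lowest A375neg library (8031). This was a log2 fold change of -0.21 ± 0.10 (SE), with a 95% confidence interval of -0.44 to 0.03 and an adjusted p of 0.215 in edgeR's test. Among the lncRNA rows of the table MALAT1 ranked 2 by its mean raw count.

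NEAT1 lies beside MALAT1 (chr11:65422798-65445540, plus strand) and had 6294, 5256 and 4879 raw counts in A375neg and 4152, 2283 and 3272 in A375RIPK4.KO. Every A375RIPK4.KO library was below every A375neg library. Replicate 2 was the lowest knockout library (2383 on the normalized scale), with replicate 3 at 3317 and replicate 1 at 4538. The normalized mean was 5253 ± 907 in A375neg and 3413 ± 1081 in A375RIPK4.KO, which was 65.0% of the A375neg mean. NEAT1 had a log2 fold change of -0.62 ± 0.21 (95% confidence interval -1.09 to -0.15) with an adjusted p of 0.0740 in edgeR's test, so it did not pass. Without A375RIPK4.KO replicate 1 it was called, at -0.88 with an adjusted p of 0.00977, and without replicate 2 it was -0.42 with an adjusted p of 0.0722. The short and the long isoform share their 5′ end, so a count per gene cannot separate them.

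The mature 3′ ends of MALAT1 and of long NEAT1 are known to be cut by RNase P and not polyadenylated, and both transcripts have an A-rich tract after a U-rich motif. They are shown because the RNA was selected by its poly(A), with motif and tract in capitals. The sequences are those of the GENCODE 29 transcripts (GRCh38), 5′ to 3′ on the plus strand, with T for U. The MALAT1 stretch is chr11:65506066-65506116 and the NEAT1 stretch chr11:65445485-65445540.
MALAT1: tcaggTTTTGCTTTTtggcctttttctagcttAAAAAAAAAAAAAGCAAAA
NEAT1: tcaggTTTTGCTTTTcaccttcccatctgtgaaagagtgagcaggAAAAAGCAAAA
The motif TTTTGCTTTT is the same in both, and the run of A before GCAAAA has 13 letters in MALAT1 and 5 in NEAT1, while the longest run of A anywhere in the NEAT1 transcript has 22. The tRNA-like RNA that follows the MALAT1 tract, and the miRNA gene MIR612 inside NEAT1, have no row in the table.

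TALAM1, an RNA from the opposite strand of MALAT1 (chr11:65499312-65507432, minus strand), was called higher. It had 14, 9 and 10 raw counts in A375neg and 49, 28 and 25 in A375RIPK4.KO, a log2 fold change of 1.76 ± 0.41 with an adjusted p of 0.0180 in edgeR's test. All A375RIPK4.KO libraries were above all A375neg libraries. Per 100 MALAT1 counts there were 0.139, 0.0904 and 0.118 TALAM1 counts in A375neg and 0.602, 0.407 and 0.338 in A375RIPK4.KO. The setting of the strand in the authors' counting is not given in the sources used here, so sense and antisense reads at this locus may not be fully separated, and the call was lost without A375neg replicate 2 (adjusted p 0.0809), without A375neg replicate 3 (0.0705) and without A375RIPK4.KO replicate 1 (0.0675).

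Among the hosts, GAS5, SNHG1 and SNHG5 were lower at an adjusted p under 0.05. GAS5 (chr1:173863901-173869045, minus strand), a host of box C/D snoRNAs in most of its introns, had 1271, 1140 and 1141 raw counts in A375neg and 790, 892 and 869 in A375RIPK4.KO. The groups did not overlap, and the 3 A375RIPK4.KO libraries lay close together. The normalized mean was 1134 ± 119 in A375neg and 892 ± 35 in A375RIPK4.KO, or 78.6% of A375neg. This gave a log2 fold change of -0.35 ± 0.09, with an adjusted p of 0.0253 in edgeR's test.

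SNHG1 (chr11:62851978-62855885, minus strand) carries another row of C/D snoRNAs. It had 1358, 1470 and 1367 raw counts in A375neg and 1042, 973 and 1157 in A375RIPK4.KO. The A375neg libraries differed by no more than counting error, with a coefficient of variation (CV) of 2.61% where counting alone gives 2.67%. Its normalized mean was 1336 ± 35 and 1109 ± 83, a log2 fold change of -0.27 ± 0.07 with an adjusted p of 0.0359 in edgeR's test.

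SNHG5 (chr6:85677007-85678733, minus strand), the host of SNORD50A and SNORD50B, had 1479, 1512 and 1516 raw counts in A375neg and 752, 1079 and 1098 in A375RIPK4.KO. Here it was replicate 1 of A375RIPK4.KO that was lowest, and the A375neg libraries were nearly equal. The normalized mean was 1436 ± 43 and 1020 ± 172, or 71.1% of A375neg, with a log2 fold change of -0.49 ± 0.11 and an adjusted p of 0.0172 in edgeR's test. For GAS5, SNHG1 and SNHG5 the call at this threshold was lost when certain single libraries were left out: the adjusted p reached 0.0953, 0.131 and 0.0709, in that order. GAS5 lost it without A375neg replicate 1 or 3 and without A375RIPK4.KO replicate 1 or 3, SNHG1 without any of these or A375neg replicate 2, and SNHG5 without any A375neg library. Without A375neg replicate 1 or replicate 3 none of the 10 lncRNAs had an adjusted p under 0.05.

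SNHG12 (chr1:28578538-28582983, minus strand), which carries H/ACA snoRNAs and SNORD99, showed the largest difference and the largest spread of the 10. It had 309, 346 and 265 raw counts in A375neg and 192, 61 and 157 in A375RIPK4.KO. No A375RIPK4.KO library reached the lowest A375neg library, and replicate 2 stood far below the other two. The normalized mean was 293 ± 37 in A375neg and 144 ± 74 in A375RIPK4.KO, or 49.2% of A375neg. The log2 fold change was -1.02 ± 0.34 (95% confidence interval -1.80 to -0.24) with an adjusted p of 0.0773 in edgeR's test, so it did not pass. Without replicate 2 the difference was smaller, -0.66, but it was called, with an adjusted p of 0.0228, and without replicate 1 of the same group it was -1.39 with 0.0282. In DESeq2's test with all libraries the adjusted p was 0.00923.

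The other four hosts were not separated between the groups. SNHG6 on chromosome 8, which holds SNORD87, had 1916, 1800 and 1776 raw counts in A375neg and 1171, 1692 and 1382 in A375RIPK4.KO. After normalization its replicate 2 (1766) was within the range of A375neg (1658 to 1916) and the other two knockout libraries were below it. The log2 fold change was -0.24 ± 0.12 with an adjusted p of 0.203 in edgeR's test, and without replicate 2 it was -0.38 with an adjusted p of 0.00612.

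SNHG8 (chr4:118278762-118279823, plus strand), the host of SNORA24, had 485, 422 and 471 raw counts in A375neg and 352, 458 and 383 in A375RIPK4.KO, and the groups overlapped after normalization. Its log2 fold change was -0.08 ± 0.12, with a 95% confidence interval of -0.36 to 0.20 and an adjusted p of 0.723 in edgeR's test. SNHG16 (chr17:76557764-76565348, plus strand), which carries the SNORD1A, SNORD1B and SNORD1C genes, had 2088, 2228 and 2294 raw counts in A375neg and 1874, 1723 and 2081 in A375RIPK4.KO. Its log2 fold change was -0.08 ± 0.07, with an interval of -0.25 to 0.08 and an adjusted p of 0.488 in edgeR's test. For both the interval leaves out a change of 1.5-fold in either direction.

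DANCR (chr4:52712394-52720697, plus strand), which holds SNORA26, was the exception in sign. It had 1284, 1498 and 1420 raw counts in A375neg and 1201, 1690 and 1450 in A375RIPK4.KO. After normalization replicate 2 of A375RIPK4.KO was the highest library (1764), and replicate 1 (1313) lay among the A375neg values (1284 to 1380). DANCR had a log2 fold change of 0.18 ± 0.10 (95% confidence interval -0.05 to 0.41) with an adjusted p of 0.276 in edgeR's test, and without replicate 2 it was 0.06.

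**Figure D2:**
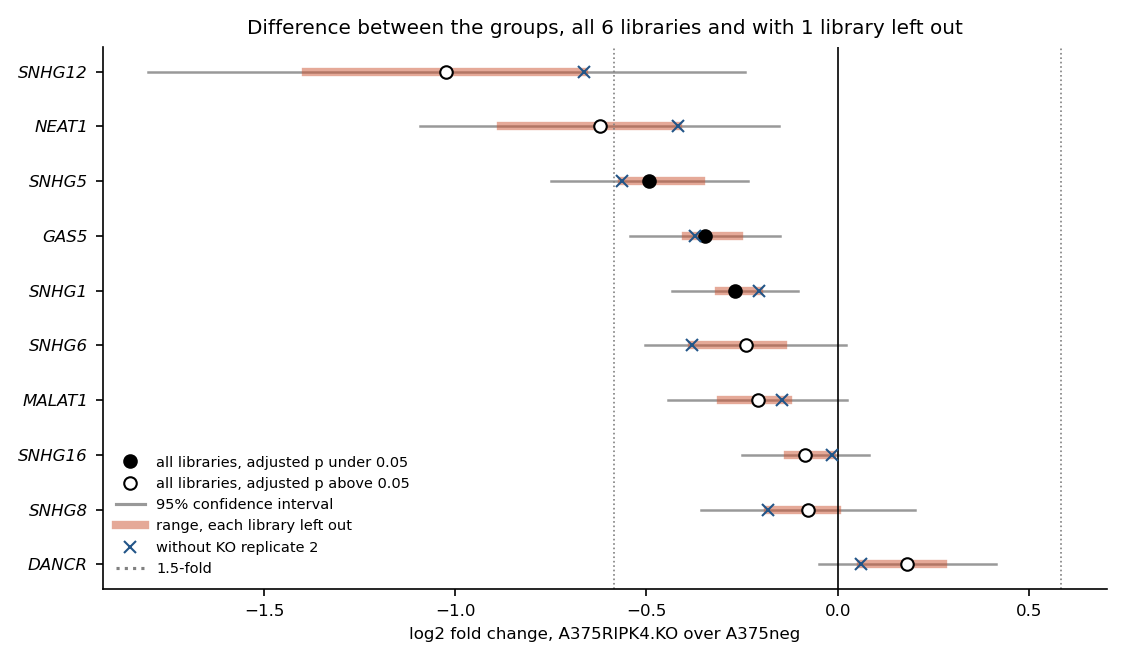
Log2 fold change of A375RIPK4.KO over A375neg (x axis) for each lncRNA (y axis), with the estimate from all libraries as a circle, its 95% confidence interval as a thin line, the range with each library left out in turn as a thick line and the value without A375RIPK4.KO replicate 2 as a cross. SNHG12 and NEAT1 lie past the dotted 1.5-fold line with wide intervals, and their values without replicate 2 were -0.66 and -0.42.

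The groups did not overlap for 5 of the 10 lncRNAs, all of them lower in A375RIPK4.KO, where 36.5% of all genes tested did not overlap in either direction and 17.8% were lower. For a single gene in 3 against 3 libraries the smallest p that the exact permutation test allows is 0.1, two-sided, and NEAT1, GAS5, SNHG1, SNHG5 and SNHG12 reached it.

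The replicates were unevenly spread, which 3 libraries per group allow only to be described. Over the 10 lncRNAs the CV of the normalized counts had a median of 9.31% in A375neg and 13.9% in A375RIPK4.KO, and over the 11685 genes that averaged 50 counts or more it was 5.84% and 8.94%. In A375neg the CV ran from 2.61% for SNHG1 to 17.3% for NEAT1, and in A375RIPK4.KO from 3.93% for GAS5 to 51.5% for SNHG12. It was higher in A375RIPK4.KO than in A375neg for 9 of 10, all but GAS5, and for 66.6% of all those genes.

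SNHG12 and NEAT1 were the most uneven in A375RIPK4.KO. The highest library held 3.30 times the lowest for SNHG12 and 1.90 times for NEAT1, and their CVs of 51.5% and 31.7% were above those of 98.5% and 96.0% of the genes. Counting error alone gives 8.55% for SNHG12 and 1.76% for NEAT1. In A375neg the same genes had a highest-to-lowest ratio of 1.27 and 1.36. NEAT1 was already among the more variable genes there, above 90.7% of them, with replicate 1 high.

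The libraries took different places for different genes. In A375neg, replicate 1 was the highest library for 7 of 10 lncRNAs, while 32.7% of all those genes were highest in it. In A375RIPK4.KO, replicate 2 was the lowest for 5 and the highest for 5 of the 10, and replicate 1 was the lowest for the remaining 5. Of all those genes 38.1% were lowest and 43.8% highest in replicate 2, and 36.7% were lowest in replicate 1. Relative to the mean of the other two knockout libraries, replicate 2 held 0.345 times the SNHG12, 0.607 times the NEAT1 and 0.877 times the MALAT1 level, but 1.32 times the SNHG6, 1.27 times the DANCR and 1.24 times the SNHG8 level. Only 0.873% of the genes were lower than SNHG12 on this ratio and 3.38% lower than NEAT1, and 95.7% were lower than SNHG6.

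**Figure D3:**
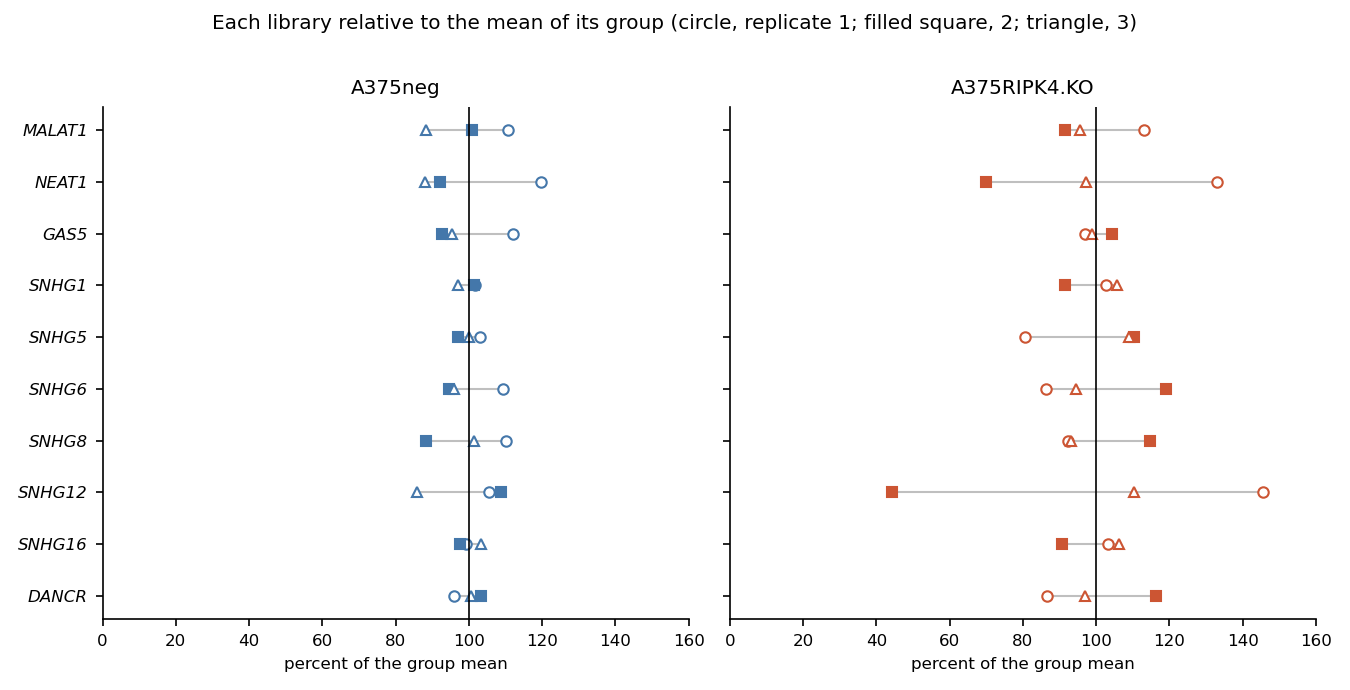
Each library's normalized count as a percentage of the mean of its group (x axis) for each lncRNA (y axis), A375neg on the left and A375RIPK4.KO on the right. A375RIPK4.KO replicate 2 (filled square) is at the low end for SNHG12, NEAT1, MALAT1, SNHG1 and SNHG16 and at the high end for the others.

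Replicate 2 also differed from the other libraries in its trend with gene length. A smooth trend of expression on exon length, drawn for each library, lay at -0.19 on the log2 scale for NEAT1 in that library and at -0.08 for MALAT1, the pair with the greatest length, but at 0.19 for SNHG8, 0.17 for SNHG6 and 0.11 for DANCR, which are the shortest. For SNHG12 and SNHG1, in which replicate 2 was the lowest knockout library, the trend there was slightly positive (0.02 and 0.04). Its part in the spread was not tested beyond removing it. With this trend removed the median CV in A375RIPK4.KO was 8.99% instead of 13.9%, and that of SNHG8 went from 12.7% to 2.86%, that of SNHG6 from 17.1% to 7.95% and that of NEAT1 from 31.7% to 23.7%. SNHG12 kept its spread, at 52.2%, that of SNHG1 went from 7.47% to 9.40%, and the median in A375neg was 9.78% instead of 9.31%. In that setting NEAT1 and SNHG12 were called, with log2 fold changes of -0.59 and -1.01 and adjusted p of 0.0186 and 0.0404 in edgeR's test, and SNHG6 had an adjusted p of 0.0261.

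**Figure D4:**
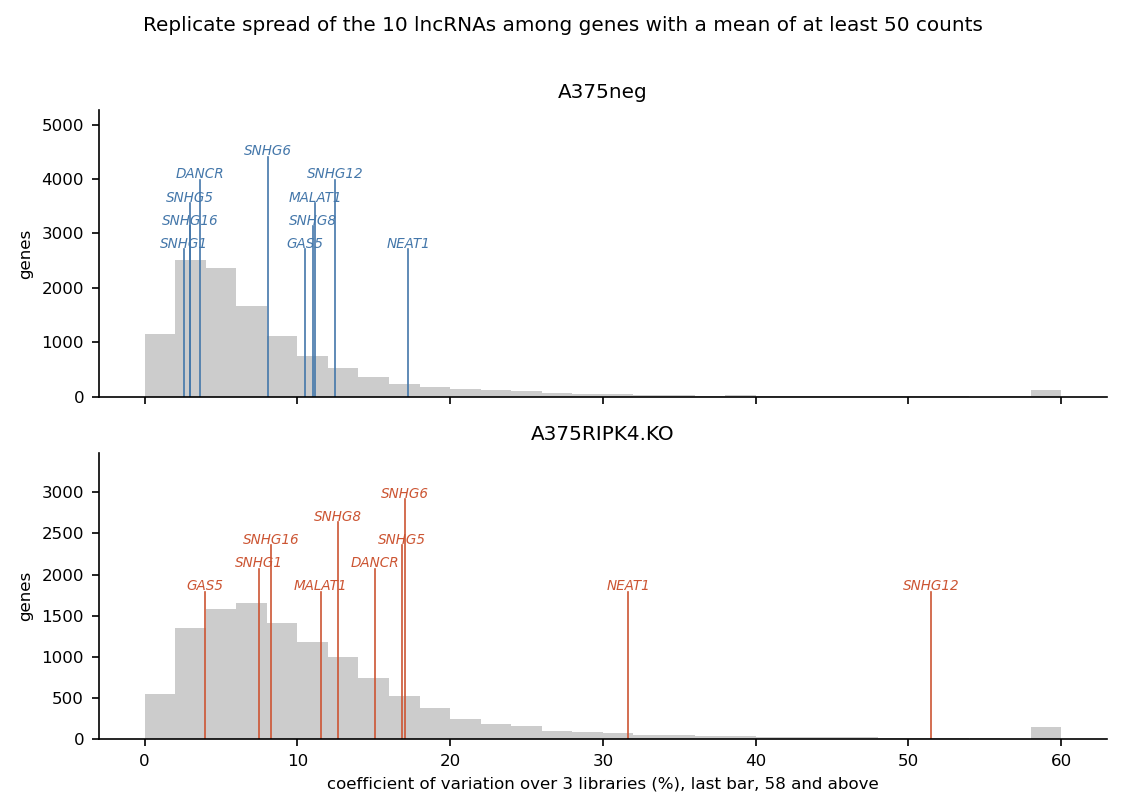
Number of genes (y axis) by the CV over 3 libraries (x axis, in percent) for genes that averaged 50 counts or more, A375neg above and A375RIPK4.KO below, with the 10 lncRNAs as lines. SNHG12 at 51.5% and NEAT1 at 31.7% lie in the tail of the A375RIPK4.KO libraries, while GAS5 moves from 10.5% in A375neg to 3.93%.

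Levels of different genes can be set side by side only per length. In RPKM-like units, counts per kilobase of exon scaled by library size, the A375neg means ran from 57.2 ± 4.6 for SNHG6 and 41.9 ± 4.7 for MALAT1 through DANCR (23.8 ± 0.87), SNHG5 (20.8 ± 0.62), SNHG8 (19.4 ± 2.1), SNHG16 (16.0 ± 0.48), SNHG1 (14.5 ± 0.38), GAS5 (12.7 ± 1.3) and NEAT1 (9.39 ± 1.6) to SNHG12 (2.80 ± 0.35). Only SNHG5 and SNHG8, and SNHG1 and GAS5, overlapped with their neighbour in this order. In A375RIPK4.KO the order was nearly the same, with SNHG5 (14.8 ± 2.5) now below SNHG8 (18.4 ± 2.3) and SNHG16 (15.1 ± 1.3), and SNHG12 was again lowest (1.38 ± 0.71). The exon lengths are those of all annotated GENCODE 29 exons of a gene, retained introns included, so the true level of a gene that is mostly spliced is understated. For SNHG5 that length, 2806 bases, was more than the 1727 bases that its gene spans in RefSeq. The places of the spliced hosts in the order are therefore uncertain. For NEAT1 the length used, 22767 bases, spans the long isoform. Its level is also understated as far as its counts came from the short, polyadenylated isoform, so its place in the order is uncertain.

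The host genes hold snoRNA genes, mostly within introns, and several of them begin with a pyrimidine-rich stretch. RefSeq (GRCh38.p14) places 32 snoRNA genes on the same strand inside the 8 hosts, of which 26 have a row. Of 31 whose position was compared with GENCODE 29 transcripts of the host, 29 lie within an intron in more transcripts than they touch an exon. The sequences of 5 of the tested snoRNAs, at least 1 from each host with a tested row, follow, 5′ to 3′ in the direction of the host and with T for U, because their rows are read beside those of the hosts below. Capitals mark TGATGA near the 5′ end and CTGA near the 3′ end, the letters of boxes C and D, or ACA near the 3′ end of an H/ACA snoRNA.
SNORD80 (GAS5, chr1:173864833-173864903, minus strand): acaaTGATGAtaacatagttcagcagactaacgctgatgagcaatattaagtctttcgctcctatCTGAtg
SNORD47 (GAS5, chr1:173864369-173864445, minus strand): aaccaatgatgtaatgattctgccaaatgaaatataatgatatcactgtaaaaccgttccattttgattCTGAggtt
SNORD31 (SNHG1, chr11:62853326-62853393, minus strand): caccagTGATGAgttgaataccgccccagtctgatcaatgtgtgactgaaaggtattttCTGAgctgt
SNORA16A (SNHG12, chr1:28580920-28581053, minus strand): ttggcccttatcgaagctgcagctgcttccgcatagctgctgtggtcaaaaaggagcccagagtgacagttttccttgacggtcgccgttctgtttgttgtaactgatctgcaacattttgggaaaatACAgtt
SNORA26 (DANCR, chr4:52713249-52713370, plus strand): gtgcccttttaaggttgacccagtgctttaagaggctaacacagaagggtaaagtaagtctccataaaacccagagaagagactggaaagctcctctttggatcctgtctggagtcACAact
Both TGATGA in the first 25 letters and CTGA in the last 20 were found in 12 of the 19 C/D snoRNAs of these hosts for which a sequence was read, and in 65.3% of the 288 SNORD transcripts of GENCODE 29. SNORD47 has no exact TGATGA in that window.

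The starts of the hosts are shown because this class of genes is known for pyrimidine-rich starts. Each line gives 20 bases before and 20 from a RefSeq transcript start, which is the outermost start of the gene except for SNHG12, where it is an internal start (position 28581873), in the direction of the gene (GRCh38), with the longest unbroken run of C and T within 5 bases of the start in capitals.
SNHG1 (chr11:62855866-62855905, minus strand): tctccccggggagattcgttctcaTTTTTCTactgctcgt
SNHG5 (chr6:85678714-85678753, minus strand): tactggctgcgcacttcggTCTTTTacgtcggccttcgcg
SNHG12 (chr1:28581854-28581893, minus strand): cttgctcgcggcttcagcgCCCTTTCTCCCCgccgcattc
SNHG16 (chr17:76557744-76557783, plus strand): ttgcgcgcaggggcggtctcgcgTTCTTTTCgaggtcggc
SNHG8 (chr4:118278742-118278781, plus strand): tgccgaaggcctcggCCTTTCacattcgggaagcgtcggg
DANCR (chr4:52712374-52712413, plus strand): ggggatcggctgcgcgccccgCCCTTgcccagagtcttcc
For GAS5 the most frequent start of its GENCODE 29 transcripts, shared by 6 of 29, is given instead, since the RefSeq start lies farther upstream with a run of 3 (30 bases, chr1:173867960-173867989, minus strand).
GAS5: CTTTTCgaggtaggagtcgactcctgtgag
Of the 6 hosts read at their outermost RefSeq start 5 had a run of at least 5, up to 8, and the internal start of SNHG12 had a run of 12. A run of at least 5 was found in 34.1% of the 35116 RefSeq promoters. Hosts with an adjusted p under 0.05 (SNHG1, a run of 7, and SNHG5, a run of 6) and hosts above it (SNHG16, 8, and SNHG8, 6) both carried such runs. GAS5, also under 0.05, had a run of 3 at its outermost RefSeq start and of 6 at the GENCODE 29 start shown. MALAT1, which is not among the hosts, had a run of 11 at its outermost RefSeq start and of 1 at an internal start, so such runs were not particular to the hosts.

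The snoRNA rows themselves had few counts. Mature snoRNAs are short and carry no poly(A) tail. Whether a read in such a row came from a mature snoRNA or from an unspliced host, and how reads shared by a host and its snoRNA were counted, is not given in the sources used here. Of the 26 listed rows, 22 had a lower mean and 4 a higher mean in A375RIPK4.KO. Only 10 of them had enough counts to be tested, 9 of these were lower by sign with SNORA26 as the exception, and none was called in edgeR's test (5 had an unadjusted p under 0.05, none an adjusted p under 0.05). Their median log2 fold change was -0.93, beside -0.34 over the 69 tested snoRNA rows of the table, of which 51 were lower by sign and 2 were called. In 8 of the 10 replicate 2 was the lowest A375RIPK4.KO library, and without it 8 were lower by sign, with SNORD78 at 0.15, and the median was -0.63.

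SNORD80, inside GAS5, had 115, 102 and 98 raw counts in A375neg and 70, 28 and 49 in A375RIPK4.KO. The groups were separate, with replicate 2 lowest. The log2 fold change was -0.96 ± 0.32, with an adjusted p of 0.0729 in edgeR's test and 0.0389 in DESeq2's test, and without replicate 2 it was -0.67. SNORD47, also inside GAS5, had 28, 16 and 18 raw counts in A375neg and 9, 6 and 4 in A375RIPK4.KO, with a log2 fold change of -1.56 ± 0.48 and an adjusted p of 0.0563 in edgeR's test. For SNORD47 replicate 2 was not the lowest, and without it the value was -1.51.

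In SNHG1, SNORD31 had 76, 44 and 43 raw counts in A375neg and 37, 10 and 25 in A375RIPK4.KO, and SNORD22 had 51, 16 and 24 against 18, 3 and 14. The log2 fold change was -1.04 ± 0.46 for SNORD31 and -1.25 ± 0.63 for SNORD22, and without replicate 2 it was -0.67 and -0.79. SNORD27 had 12, 8 and 4 counts in A375neg and 1, 0 and 0 in A375RIPK4.KO and was too low to be tested. SNORD30, also too low to be tested, went the other way, with 1, 2 and 1 counts in A375neg and 5, 4 and 1 in A375RIPK4.KO. The 2 listed rows of SNHG12 turned mostly on 1 library: SNORD99 had 42, 25 and 18 counts in A375neg and 26, 4 and 19 in A375RIPK4.KO, and SNORA16A had 21, 30 and 15 against 15, 2 and 15. Without replicate 2 their log2 fold changes were -0.19 and -0.40, instead of -0.66 and -0.90.

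SNORA26 followed the sign of its host DANCR, with 30, 29 and 21 raw counts in A375neg and 45, 49 and 28 in A375RIPK4.KO. Its log2 fold change was 0.75 ± 0.32 with an adjusted p of 0.154 in edgeR's test. The groups overlapped after normalization.

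Summed over the 10 listed rows inside GAS5, the normalized counts were 309.9, 209.1 and 179.1 in A375neg and 165.0, 59.5 and 129.8 in A375RIPK4.KO. The A375neg mean was 1.97 times that of A375RIPK4.KO, and 1.58 times without replicate 2. The 7 rows of SNHG1 gave 114 ± 46 and 54 ± 31, a ratio of 2.11, or 1.65 without replicate 2, and the groups overlapped. The same ratio was 1.69 for SNHG12 and 2.22 for SNHG6. It was 1.11 for SNHG8, 1.02 for SNHG16, 0.861 for SNHG5 and 0.595 for DANCR. Without replicate 2 these ratios were 1.22 and 1.60, then 0.889, 0.680, 0.900 and 0.658, in that order. Per 100 GAS5 counts there were 24.4, 19.9 and 16.6 counts in the snoRNA rows in A375neg and 19.1, 6.39 and 14.7 in A375RIPK4.KO, so replicate 1 of A375RIPK4.KO lay within the A375neg range, replicate 3 just below it and replicate 2 far below. The 216 snoRNA rows outside these lncRNAs summed to 2396 ± 121 in A375neg and 2143 ± 291 in A375RIPK4.KO, with replicate 2 lowest there as well (1839).

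**Figure D5:**
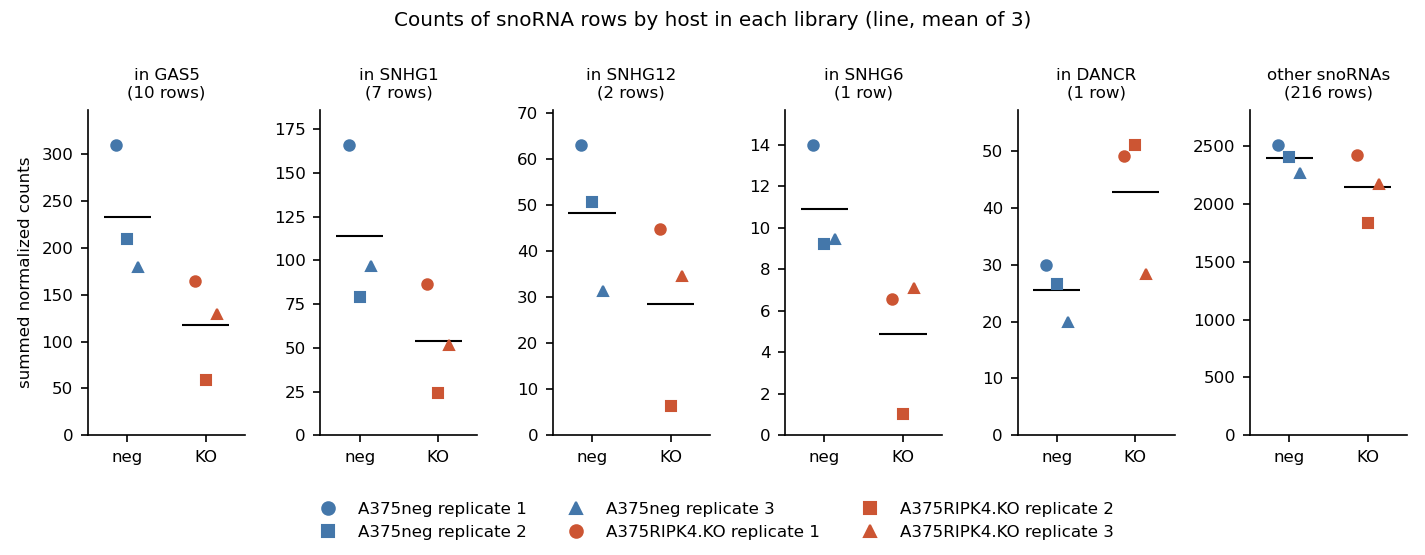
Summed normalized counts (y axis, starting at 0) of the listed snoRNA rows inside 5 hosts, and of the 216 snoRNA rows elsewhere, in each A375neg and A375RIPK4.KO library, with the mean of 3 libraries as a line. The hosts SNHG5, SNHG8 and SNHG16 are not shown. Replicate 2 of A375RIPK4.KO is lowest in each panel except that of DANCR, where it is highest.

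Other snoRNA host lncRNAs, 17 tested of a list of 23, had a median log2 fold change of -0.09 and none was called in edgeR's test (5 had an unadjusted p under 0.05, and DESeq2 called none). At an adjusted p under 0.05 SNHG19 was lower (-0.55, adjusted p 0.0440) and SNHG17 higher (0.32, 0.0183). The most abundant of them, SNHG29, had 6772, 7362 and 7099 raw counts in A375neg and 5028, 6805 and 6357 in A375RIPK4.KO, with a log2 fold change of -0.09 and an adjusted p of 0.543. Of 14 other lncRNAs tested, 2 were called. KCNQ1OT1, the antisense RNA of an imprinted domain, was lower, with 192, 208 and 183 raw counts against 110, 97 and 115 (-0.72, adjusted p 0.0110, and 0.0514 without A375neg replicate 2), and TALAM1 was higher, as given above. NORAD, a cytoplasmic RNA that binds PUMILIO proteins and the most abundant of that list, had a log2 fold change of -0.18 with an adjusted p of 0.195 in edgeR's test.

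Of 16 paraspeckle protein genes tested none was called (7 had an unadjusted p under 0.05), and DAZAP1, an RNA-binding protein, was higher by 0.22 at an adjusted p of 0.0210 in edgeR's test. HNRNPA1, the most abundant of them, was at -0.19 with an adjusted p of 0.167. Of 18 nuclear speckle protein genes none had an adjusted p under 0.05 (3 had an unadjusted one), and SRSF1, the most abundant, was at 0.07. DESeq2 called none in either list.

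Of 17 genes for snoRNP proteins and their assembly factors none was called (4 had an unadjusted p under 0.05), while NOP58, a core C/D protein, and DKC1, the pseudouridine synthase of H/ACA particles, were higher by 0.30 and 0.25 at adjusted p of 0.0194 and 0.0179 in edgeR's test. NOLC1, the most abundant of them over the 6 libraries, was at 0.14 with an adjusted p of 0.152. Of 15 genes for nonsense-mediated decay, the pathway that degrades several host RNAs, none was called (4 had an unadjusted p under 0.05), and SMG6, its endonuclease, was higher by 0.54 at an adjusted p of 0.000928. SMG5 and SMG9 were higher by 0.29 and 0.26 at 0.0106 and 0.0212, and ETF1, a translation release factor and the most abundant of the list, was at 0.14 with an adjusted p of 0.126. DESeq2 called none in either list.

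Of 32 protein-coding snoRNA hosts tested none was called (2 had an unadjusted p under 0.05, and DESeq2 called none), and the median log2 fold change was 0.04. The RPL7A row had only 22 to 36 raw counts, so it may not hold all reads of that gene. RPL13 was lower by 0.37 (-0.37, adjusted p 0.0271 in edgeR's test) and GNL3 higher by 0.20 (0.0359), and HSPA8, the most abundant, was at 0.11. Among 8 tested melanoma markers 2 were called, S100B (-0.89, adjusted p 0.0361) and S100A1 (-0.86, 0.0450), both lower, and VIM, the most abundant, was at 0.05. With no limit on the fold 5 of the 8 had an adjusted p under 0.05 in edgeR's test, all lower, against 8.24% of all genes. They included MCAM (-0.37, adjusted p 0.0020), CSPG4 (-0.43, 0.0039) and MITF (-0.44, 0.0449, and up to 0.154 in the alternatives). DESeq2 called S100B but not S100A1 (adjusted p 0.110). The S100A1 call was also lost with no filter on low counts, with the replicate block and without any 1 library (adjusted p up to 0.139), and the S100B call without A375neg replicate 2 or 3 or A375RIPK4.KO replicate 1 or 3 (up to 0.126). Of 4 tested markers of other cell types the keratin gene KRT14 (-1.75, adjusted p 3.46e-05) and the endothelial marker PECAM1 (-2.12, 0.00556) were called, both lower. The PECAM1 call rests on few raw counts, 21, 23 and 24 in A375neg and 4, 5 and 5 in A375RIPK4.KO.

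Some of the protein-coding genes nearest to the lncRNAs could be tested as well. FRMD8, the neighbour of NEAT1 on its left, had a log2 fold change of -0.37 ± 0.10 with an adjusted p of 0.0353 in edgeR's test. SLC3A2, the amino acid transporter subunit whose gene begins 224 bases from the start of SNHG1 on the other strand, was at -0.29 ± 0.07 with an adjusted p of 0.0169. Neither reached 1.5-fold. ZBTB37 at GAS5 (-0.33), WDR74 at SNHG1 (0.22), SYNCRIP at SNHG5 (0.14), PRSS12 at SNHG8 (-0.17), RCC1 (0.09) and TRNAU1AP (-0.10) at SNHG12 and USP46 at DANCR (0.18) did not pass an adjusted p of 0.05. ZBTB37 overlaps GAS5, TRNAU1AP overlaps SNHG12 and MCMDC2 overlaps SNHG6, and how the counting treated reads in shared stretches is not given in the sources used here.

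By the distance between centred log2 CPM (counts scaled to library size) over the 6 libraries, the genes most like MALAT1 were MRPS25 (0.0762), CASP6 (0.0765) and COMMD2 (0.0782), and those most like NEAT1 were RHPN1 (0.162), LONRF2 (0.225) and DMPK (0.278). MALAT1 and NEAT1, although neighbours in the genome, lay 0.730 apart. MALAT1 ranked 893 among the genes nearest to NEAT1, and NEAT1 ranked 9312 among those nearest to MALAT1. All 6 libraries enter these distances, so they describe the samples and not a relation between the genes.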

How the data were processed

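The authors' provider trimmed, mapped and counted the reads; the submitters' processing notes name cutadapt, FastQC, HISAT2, HTSeq and DESeq2 and the build GRCh38.p13, while versions, the annotation release and the strand setting are not given in the sources used here. The raw counts per gene were deposited by the authors as whole numbers and were the only values used. The same deposited table holds the authors' normalized counts (a signal scaled per library), a fold ratio, its log2 value, a Wald score and a p-value, which were not used.

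All 6 libraries entered 1 fit of the raw counts with the quasi-likelihood test of edgeR 4.0.16 (R 4.3.3), after TMM scaling and filterByExpr, and p-values were adjusted by Benjamini-Hochberg over the 14443 genes kept. The 95% intervals use the moderated degrees of freedom of that fit. The alternatives were DESeq2 1.42.0 or only its size factors, leaving out the filter or raising it to 50 counts on average, a replicate block, an offset that removes a gene length trend, and dropping each library in turn. Exon lengths and snoRNA sequences came from GENCODE 29, and positions, promoters and snoRNA genes from RefSeq GRCh38.p14, whose positions matched those in the deposited table; 89.2% of tested genes had a length. Intervals cover counting error and the spread of 3 replicates only. Besides the 10 lncRNAs, the genes named are RIPK4, the called and the most abundant gene of each list, listed snoRNAs, nearest protein-coding genes (some are not reported here) and the 3 genes most like MALAT1 and NEAT1; further genes with an adjusted p under 0.05, and SOX10 and PTPRC, were named after their values were seen. The lncRNAs and all lists were chosen with earlier results of these data known. The deposited table also holds rows with a number added to a gene name, such as ACTN4_1 beside ACTN4. The lists used plain names only, so a list row may hold only part of a gene's counts. Raw counts were low for RPL7A (22 to 36), FBL (86 to 127), HNRNPR (0 to 5) and TAF15 (0 to 3).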

Additional observations from a re-analysis of the deposited data

How the results depend on the processing

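The number of lncRNAs called was 0 with all libraries, 1 with DESeq2 (SNHG12), 1 with the replicate block (NEAT1), 2 with the gene length trend removed (NEAT1 and SNHG12) and 3 with no limit on the fold (GAS5, SNHG1 and SNHG5), and with each library left out it ran from 0 to 2. The number with an adjusted p under 0.05, a count added after the data were seen, was 3, and 6 with the length trend removed; with each library left out it ran from 0 to 5. It was 0 without A375neg replicate 1 and without A375neg replicate 3, 1 without A375neg replicate 2 and without A375RIPK4.KO replicate 3, and 5 without A375RIPK4.KO replicate 2. Over all genes 1306 were called, 1353 with DESeq2, 1292 with the length trend removed and 1059 to 1336 with each library left out. With no limit on the fold it was 2403, a count made over all genes only with all libraries in the main test. Of the list genes 6 were called, 3 with genes averaging under 50 counts left out, and 2 to 5 with each library left out (2 without A375neg replicate 2, 3 without A375neg replicate 3 and 3 without A375RIPK4.KO replicate 1). The median CV in A375RIPK4.KO was 13.9%, and 8.99% with the length trend removed. No log2 fold change of the 10 lncRNAs changed sign in 120 values from the 12 alternatives; 99 stayed on the same side of an adjusted p of 0.05, 12 lost it and 9 gained it, and MALAT1, SNHG8, SNHG16 and DANCR never passed. Libraries with the same replicate number did not deviate together (Pearson's r of deviations across genes 0.0823, 0.0357 and -0.0119), so the numbers were not taken to pair them; with the replicate block 1266 of all genes were called and NEAT1 had an adjusted p of 0.00570. Rows with few counts limit what is said of the snoRNAs: 16 of the 26 listed rows were too low to be tested.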
